A study of Mus musculus with 35 samples.

Results

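The peroxisome proliferator-activated receptors (PPARs) PPARα, PPARβ/δ and PPARγ, encoded by Ppara, Ppard and Pparg, and the retinoid X receptors RXRα and RXRβ, encoded by Rxra and Rxrb, were followed in the small intestine of PPARα-null and wild-type mice after an oral dose of an agonist. Every probeset annotated to 1 of these 5 genes alone was taken, which gave 10 probesets of 45037 on the array: 3 for Ppara, 2 for Ppard, 1 for Pparg, 3 for Rxra and 1 for Rxrb. One further probeset shared by Ppard and another gene was left out. Of the 10 probesets, 7 had a mean above 32 on the linear scale (log2 5) in at least 1 group and were tested, as were 15384 probesets in all.

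PPARs are nuclear receptors that bind fatty acids and their derivatives, and they sit on DNA as heterodimers with an RXR at repeats of the hexamer AGGTCA. On ligand binding the complex exchanges corepressors for coactivators and raises transcription of genes for fatty acid uptake, oxidation and storage. In the intestinal epithelium PPARα and PPARβ/δ are the receptors best known for handling dietary fat, and PPARγ is known as the regulator of fat storage in adipocytes. RXRs bind vitamin A derivatives and also pair with the receptors for vitamin D, thyroid hormone, oxysterols, bile acids and xenobiotics.

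The groups were PPARα-null mice given WY14643 (n = 4), eicosapentaenoic acid (EPA, n = 5), docosahexaenoic acid (DHA, n = 4) or oleic acid (OA, n = 4), and wild-type mice given WY14643 (n = 4), EPA (n = 5), DHA (n = 5) or OA (n = 4). WY14643 is a synthetic PPARα agonist, EPA and DHA are omega-3 fatty acids, and OA is the main fatty acid of olive oil. All were males of 4 months that had eaten a modified AIN76A diet with olive oil for 2 weeks, were fasted for 4 h, received 400 µl by gavage and were killed 6 h later, and RNA of the whole small intestine of 1 mouse went on each of the 35 arrays. The PPARα-null mice were on the 129S4/SvJae background and the wild-type mice were 129S1/SvImJ, so genotype and substrain cannot be told apart. WY14643 was suspended in carboxymethyl cellulose, the fats were pure triacylglycerols, the doses differed, and no untreated mice were included. A difference between WY14643 and a fat therefore also contains the difference in vehicle and in fat load.

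Values are log2 GCRMA intensities. The array medians lay between 2.83 and 2.88, and between 31.6% and 32.4% of the probesets of an array exceeded 32. The summed level of 9 enterocyte markers ranged on the log2 scale only between 16.14 and 16.39 over all groups, so the arrays carried the epithelial transcripts of the labelled tissue. The probeset shared by the PPARα targets Cyp4a10 and Cyp4a31, which encode fatty acid ω-hydroxylases, was used to check the genotype labels. It lay between 1.36 and 2.50 on 15 arrays labelled PPARα-null and between 8.15 and 12.75 on 17 arrays labelled wild-type. The other 3 arrays went against their labels: 9.91 on PPARα-null EPA replicate 5, 10.61 on PPARα-null OA replicate 1 and 1.81 on wild-type EPA replicate 5. The paper's Cyp4a10 fold change after EPA is far above that by label, and is met with the EPA replicate 5 arrays exchanged between genotypes. Results after EPA by label therefore differ in grouping from the paper's. Results are given with all arrays by label and, where the 3 arrays bear on them, also without them. Because these arrays were recognised by a PPARα target, leaving them out favours a genotype difference and is no independent test.

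The 300-base windows around the annotated starts of the genes (RefSeq, GRCm38.p6, plus strand for all 5 genes) were read for AGGTCA, the half-site of the PPAR:RXR element, on both strands, and for its direct repeat with 1 base between the copies, AGGTCANAGGTCA. The windows of Ppara and Pparg are shown because these 2 genes had the largest differences described here. Each spans the transcription start, with most of its bases before it, and capitals mark AGGTCA.
Ppara, chr15:85735526-85735825: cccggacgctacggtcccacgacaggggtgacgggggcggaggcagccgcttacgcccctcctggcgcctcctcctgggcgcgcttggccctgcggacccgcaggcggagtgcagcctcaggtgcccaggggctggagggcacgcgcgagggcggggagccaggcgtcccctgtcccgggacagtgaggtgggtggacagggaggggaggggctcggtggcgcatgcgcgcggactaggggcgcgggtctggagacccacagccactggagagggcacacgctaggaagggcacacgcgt
Pparg, chr6:115362099-115362398: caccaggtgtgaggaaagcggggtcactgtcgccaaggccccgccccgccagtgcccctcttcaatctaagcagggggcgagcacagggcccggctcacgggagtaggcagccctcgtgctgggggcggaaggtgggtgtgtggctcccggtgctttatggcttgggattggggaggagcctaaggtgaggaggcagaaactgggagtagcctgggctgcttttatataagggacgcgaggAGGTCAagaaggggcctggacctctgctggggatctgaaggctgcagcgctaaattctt
The Ppara window held no AGGTCA, and the Pparg window held 1. Of the other windows of the 5 genes, another Pparg start held 1 and a second Rxra start held 2. The remaining 5 held none, among them the Pparg start at chr6:115421816-115422115. Of all 32851 windows of this length 16.3% held at least 1. Which Pparg start gives the transcript read by the tested probeset was not given in the sources used here. The direct repeat was in none of the 9 windows of the 5 genes and in 0.0396% of all windows.

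The first question was whether Ppara itself was lower in the null mice. It was, clearly after WY14643, but its 3 probesets differed in how far, and all still gave signal in null mice. On probeset 1439675_at the values after WY14643 were 9.74, 9.92, 10.09 and 10.26 in PPARα-null mice, against 11.67, 11.68, 11.71 and 11.06 in wild-type mice. On 1457721_at they were 6.70, 7.12, 7.39 and 7.42 in PPARα-null mice, against 9.57, 9.59, 9.41 and 8.71 in wild-type mice. On 1449051_at they were 5.63, 6.16, 5.41 and 5.58 in PPARα-null mice, against 9.58, 8.89, 9.16 and 8.49 in wild-type mice. The genotypes did not overlap on any of the 3, and the null values of 1439675_at were still far above the limit of 32. The null minus wild-type difference was −1.53 ± 0.36 on 1439675_at (2.89-fold lower, adjusted p = 0.0063), −2.16 ± 0.42 on 1457721_at (4.47-fold lower, adjusted p = 0.00078) and −3.33 ± 0.60 on 1449051_at (10.1-fold lower, adjusted p = 0.00031; log2 difference ± SE, limma with Benjamini-Hochberg adjustment over all 15384 probesets). In this comparison 4 of the 7 tested probesets of the 5 genes passed, the fourth being Pparg, against 6.22% of all probesets. The other 3 read 1 gene, Ppara, which is the gene disrupted in the null mice. The count is therefore not a result about the receptor genes as a group.

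**Figure D1:**
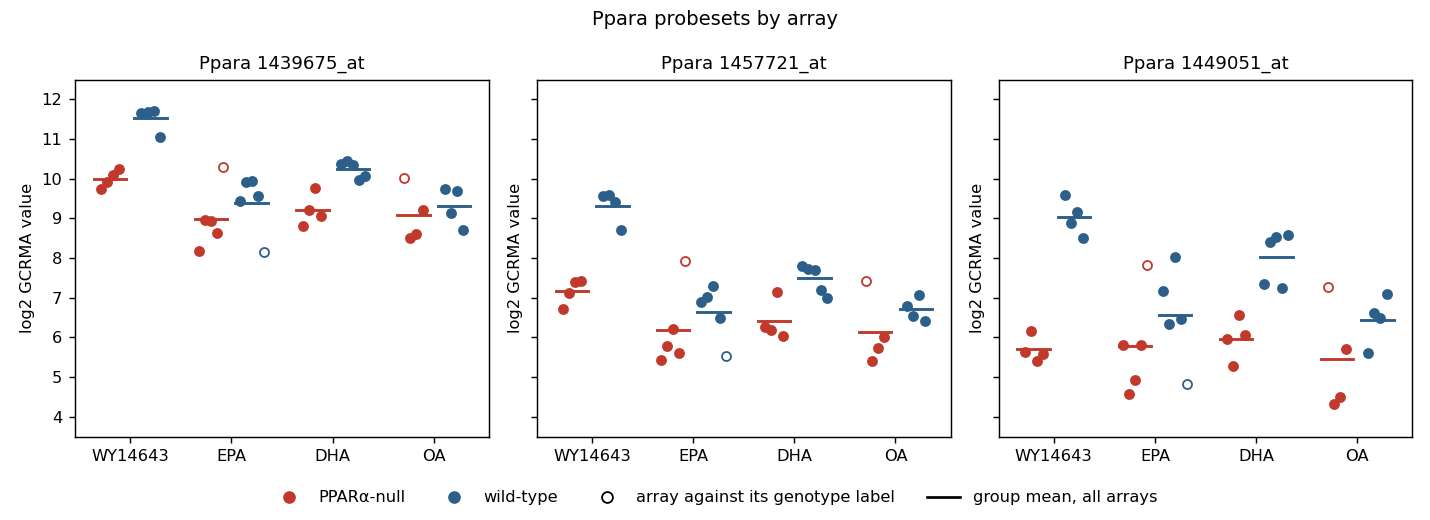
Log2 GCRMA value (vertical axis) of the 3 Ppara probesets on each array, by agonist (horizontal axis), with PPARα-null mice left of wild-type mice; horizontal lines are group means over all arrays and open circles the 3 arrays that went against their genotype labels. After WY14643 the null mice lay between 5.41 and 6.16 on 1449051_at and the wild-type mice between 8.49 and 9.58.

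After the fats the estimated genotype differences of Ppara were smaller than after WY14643. No test of that contrast passed (limma interaction, adjusted p at least 0.17), so a smaller difference was not shown. Leaving out the 3 arrays changed calls of Ppara after EPA and DHA but not after OA. After DHA, where no array went against its label, 1449051_at gave 5.97, 5.29, 6.56 and 6.07 in PPARα-null mice and 7.35, 8.39, 8.52, 7.24 and 8.57 in wild-type mice. These groups did not overlap, and the difference was −2.05 ± 0.57 (adjusted p = 0.029), but the call ended without PPARα-null DHA replicate 1, 2 or 3 or wild-type DHA replicate 3 or 5 (adjusted p between 0.056 and 0.083). The other Ppara probesets differed after DHA by −1.03 ± 0.34 (1439675_at, adjusted p = 0.069, no overlap) and −1.08 ± 0.40 (1457721_at, adjusted p = 0.10). DHA thus gave 1 call among the 7 probesets with all arrays, with 6.19% of all probesets called. Without the 3 arrays, none of them given DHA, the differences were the same and only the estimated spread fell. All 3 Ppara probesets then passed, where 7.43% of all probesets did. On 1439675_at, 1449051_at and 1457721_at the SE was then 0.21, 0.38 and 0.23 (limma, adjusted p = 0.0023, 0.00086 and 0.0037). As said above, that fit favours a genotype difference.

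After EPA the arrays labelled PPARα-null and wild-type overlapped on all 3 Ppara probesets. On 1439675_at they were 8.19, 8.95, 8.92, 8.63 and, in replicate 5, 10.29 in PPARα-null mice, against 9.45, 9.91, 9.93, 9.56 and, in replicate 5, 8.14 in wild-type mice. The fifth array of each genotype lay within or beyond the range of the other genotype, as it did for Cyp4a10. With all arrays the differences after EPA were −0.40, −0.45 and −0.77 on 1439675_at, 1457721_at and 1449051_at (SE 0.32, 0.38 and 0.54; adjusted p at least 0.68), and 0% of all probesets passed. Leaving out the 3 arrays gave −1.04 ± 0.22 (adjusted p = 0.0082), −1.16 ± 0.25 (adjusted p = 0.0077) and −1.72 ± 0.40 (adjusted p = 0.019), where 1.64% of all probesets passed.

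After OA no probeset of the 5 genes passed with all arrays, where 0.351% of all probesets did, nor without the 3 arrays, where 1.4% did. On 1449051_at PPARα-null OA replicate 1 read 7.27 and the other PPARα-null mice 4.32, 4.49 and 5.71, against 5.60, 6.61, 6.49 and 7.09 in wild-type mice. The difference of this probeset was −0.999 ± 0.60 with all arrays (adjusted p = 0.57) and −1.61 ± 0.43 without that array and the 2 EPA arrays (adjusted p = 0.060). Without the 3 arrays the calls among the 7 probesets were 5 after WY14643 (6.95% of all probesets) and 4 after DHA (7.43%), the fits being altered there only through the shared estimate of the spread.

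**Figure D2:**
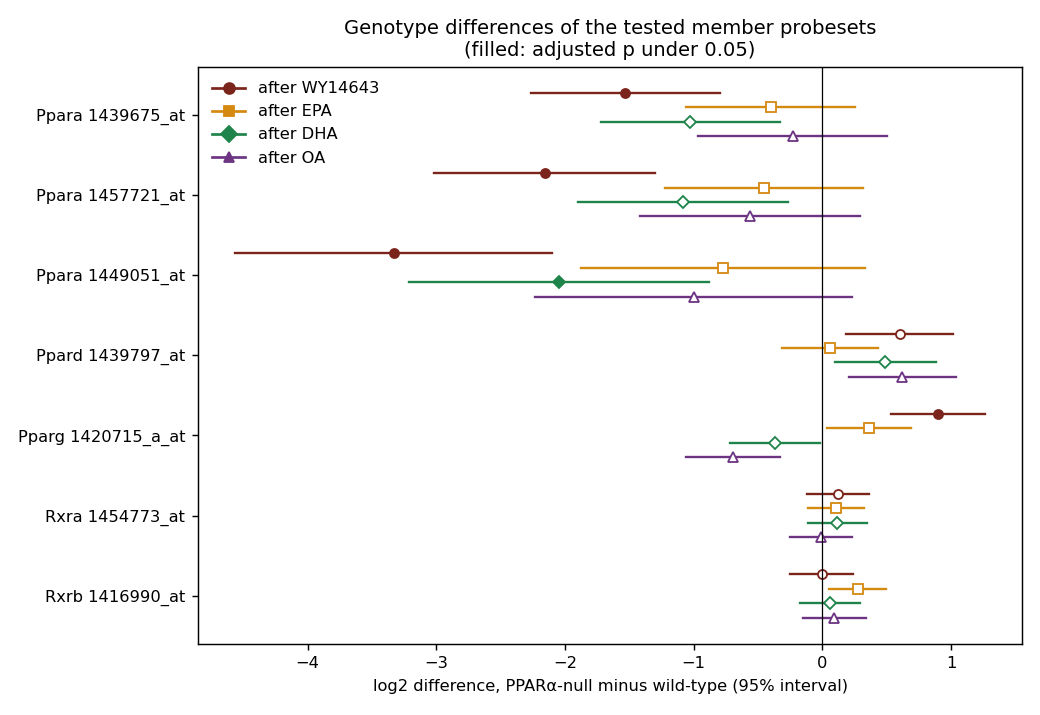
Difference between PPARα-null and wild-type mice (log2, horizontal axis) for the 7 tested probesets after each agonist, all arrays by label, with 95% intervals; filled symbols passed an adjusted p of 0.05. The 3 Ppara probesets lie left of 0 under every agonist, and the Pparg probeset lies right of 0 after WY14643 and left of it after OA. The intervals of Rxra and Rxrb include 0, except that of Rxrb after EPA.

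Averaged over the agonists, the 3 Ppara probesets did not carry 1 common genotype difference. The log2 difference between 2 probesets on the same array was compared between genotypes, which removes whatever the probesets share. The gap of 1439675_at over 1449051_at averaged 4.30 ± 0.45 in PPARα-null mice and 2.50 ± 0.30 in wild-type mice after WY14643 (SD, n = 4 each; exact two-sided permutation p = 0.029, the smallest that 4 against 4 allows; adjusted p = 0.11 over 12 tests). Averaged over the 4 agonists, this gap was 0.99 wider in null mice (two-sided permutation within agonists with 100000 draws, p = 0.00062, adjusted p = 0.0019 over 3 pairs, n = 35 arrays). The gap of 1449051_at over 1457721_at was −0.72 in the same test (adjusted p = 0.0035), and that of 1439675_at over 1457721_at was 0.27 (adjusted p = 0.0058). These averages without the 3 arrays were 1.14, −0.83 and 0.31 (adjusted p = 0.00045, 0.0014 and 0.0014). By agonist, the gap of 1439675_at over 1457721_at was wider in null mice by 0.63 after WY14643 and 0.33 after OA. After EPA and DHA it was wider by only 0.050 and 0.056. None of the 12 tests within an agonist passed (exact two-sided permutation, adjusted p at least 0.11). The gap between 1439675_at and 1457721_at lost its call when 32 was added to the linear values, which shrinks low values (0.094, adjusted p = 0.23). On the average over agonists, 1449051_at was thus further below its wild-type level in null mice than the other 2 were. Where each probeset lies in the gene, and whether within the disrupted part, was not given in the sources used here.

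Within groups the probesets also separated. Over the arrays, after subtraction of the group means, 1439675_at and 1457721_at had a Pearson r of 0.93 (n = 35) and of 0.83 without the 3 arrays. For 1439675_at and 1449051_at r was 0.63 and, without the 3 arrays, 0.02. These correlations are descriptions, and the points share the arrays and their normalization.

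The agonist groups also differed in the summed linear level of 8 pancreatic acinar markers. In PPARα-null mice it was 5239 to 18000 after WY14643, 9062 to 66511 after EPA, 17469 to 51417 after DHA and 62199 to 120777 after OA, so that WY14643 and OA did not overlap. In wild-type mice it was 10396 to 42965 after WY14643, 2016 to 82575 after EPA, 7922 to 117215 after DHA and 20184 to 79647 after OA, with overlap throughout. Its part in the agonist differences of the receptor genes was not tested.

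In wild-type mice WY14643 gave the highest Ppara level of the 4 agonists on every probeset. On 1439675_at the group means were 11.53 after WY14643, 9.40 after EPA, 10.24 after DHA and 9.31 after OA. WY14643 exceeded EPA by 2.13 ± 0.34 (4.38-fold), DHA by 1.29 ± 0.34 (2.45-fold) and OA by 2.22 ± 0.36 (4.65-fold; adjusted p = 1.7e-05, 0.0043 and 4.2e-05), without overlap. On 1457721_at the differences were 2.68, 1.83 and 2.62 (SE 0.40, 0.40 and 0.42; adjusted p at most 0.00079). On 1449051_at they were 2.46 ± 0.57 against EPA and 2.58 ± 0.60 against OA (adjusted p = 0.0011 and 0.0018), and 1.01 ± 0.57 against DHA (adjusted p = 0.17, 95% interval −0.16 to 2.18, and 0.040 without the 3 arrays). The wild-type EPA means include replicate 5, which went against its label. Without the 3 arrays WY14643 exceeded EPA by 1.82 ± 0.22 on 1439675_at (3.52-fold), 2.40 ± 0.25 on 1457721_at and 2.03 ± 0.40 on 1449051_at (adjusted p at most 0.000281). The wild-type mean after DHA lay between that after WY14643 and those after the other fats on each probeset, but with all arrays DHA itself did not differ past the threshold from EPA (−0.84 to −1.45 for EPA minus DHA, adjusted p at least 0.22) or from OA (0.79 to 1.57 for DHA minus OA, adjusted p at least 0.15). Without the 3 arrays DHA exceeded OA on 1439675_at and 1449051_at (0.92 ± 0.21 and 1.57 ± 0.38, adjusted p = 0.0080 and 0.013).

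In PPARα-null mice 1 of the 9 comparisons of Ppara between WY14643 and a fat passed with all arrays, that of 1439675_at against EPA. On 1439675_at the 4 null mice given WY14643 read 9.74 to 10.26, against 8.19 to 10.29 after EPA, 8.82 to 9.76 after DHA and 8.50 to 10.02 after OA. The highest EPA and OA values in these ranges are the 2 arrays labelled null that went against their labels. The difference was 1.00 ± 0.34 against EPA (adjusted p = 0.025, a call that ended without PPARα-null WY14643 replicate 3 or 4 or PPARα-null EPA replicate 1 or 4), 0.79 ± 0.36 against DHA (adjusted p = 0.13) and 0.92 ± 0.36 against OA (adjusted p = 0.059). Leaving the 3 arrays out gave 1.33, 0.79 and 1.23 (SE 0.22, 0.22 and 0.24; adjusted p = 0.00014, 0.018 and 0.00066), and on 1457721_at 1.41, 0.75 and 1.44 (SE 0.25, 0.25 and 0.27; adjusted p = 0.00021, 0.037 and 0.00043). With all arrays 1457721_at differed by 0.97, 0.75 and 1.02 and passed against no fat (adjusted p = 0.062, 0.23 and 0.072).

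On 1449051_at the null mice given WY14643 read 5.41 to 6.16, inside the ranges of 4.58 to 7.83 after EPA, 5.29 to 6.56 after DHA and 4.32 to 7.27 after OA. The differences were −0.09 (95% interval −1.26 to 1.07), −0.27 (−1.50 to 0.96) and 0.25 (−0.98 to 1.48), which leaves room for a change of the size seen on the other probesets. Without the 3 arrays they were 0.41, −0.27 and 0.86 (adjusted p = 0.47, 0.69 and 0.15). A test of the gap between 1439675_at and 1449051_at in null mice, chosen after these values were seen, gave 4.30 ± 0.45 after WY14643 and 3.20 ± 0.92 after EPA, 3.24 ± 0.47 after DHA and 3.63 ± 0.67 after OA (SD). No such gap passed (exact two-sided permutation p between 0.057 and 0.17, adjusted p at least 0.20 over 18 tests), so that the 2 probesets differed in their response to WY14643 was not shown.

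Ppard, the gene of the widely expressed receptor PPARβ/δ, was measured by 1439797_at, since its second probeset 1425703_at stayed between 1.71 and 2.25. After WY14643 the values were 7.96, 7.98, 8.07 and 8.0 in PPARα-null mice, against 7.46, 7.09, 7.34 and 7.73 in wild-type mice. The groups did not overlap, yet the difference of 0.60 ± 0.20 (1.52-fold) had an adjusted p of 0.076, of 0.044 without wild-type WY14643 replicate 4 and of 0.014 without the 3 arrays. After DHA the values were 8.35, 8.07, 7.77 and 7.66 in PPARα-null mice, against 7.39, 7.27, 7.43, 7.64 and 7.63 in wild-type mice (0.49 ± 0.19, adjusted p = 0.13, and 0.040 without the 3 arrays). After OA they were 8.09, 7.74, 7.24 and 7.51 in PPARα-null mice, against 6.93, 7.17, 7.22 and 6.77 in wild-type mice (0.62 ± 0.20, adjusted p = 0.18). The null values lay above the wild-type values in these 3 comparisons, none of which passed with all arrays.

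After EPA the 2 genotypes of Ppard overlapped, with 8.28, 7.98, 8.17, 8.19 and, in replicate 5, 7.41 in PPARα-null mice and 8.14, 7.91, 7.39, 7.74 and, in replicate 5, 8.56 in wild-type mice. The arrays that went against their labels held the lowest null value and the highest wild-type value, the reverse of their places for Ppara. The difference was 0.06 ± 0.18 with all arrays (adjusted p = 0.94) and 0.36 ± 0.16 without the 3 (adjusted p = 0.27).

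Among wild-type mice Ppard was higher after EPA than after OA by 0.93 ± 0.19 (1.90-fold, adjusted p = 0.0023), without overlap. Without the 3 arrays the EPA mean fell to 7.79, against 7.02 after OA, still without overlap. Wild-type mice given WY14643 were 0.54 ± 0.19 below those given EPA (adjusted p = 0.025), a call that ended without wild-type WY14643 replicate 2 or 3 or wild-type EPA replicate 1 or 5 (adjusted p between 0.056 and 0.11) and without the 3 arrays (−0.39, adjusted p = 0.050). The order of the wild-type means was EPA 7.95, DHA 7.47, WY14643 7.40 and OA 7.02, and apart from EPA over OA and over WY14643 no pair of them differed past the threshold. In null mice no agonist pair of Ppard passed with all arrays, the means being 8.004 after WY14643, 8.01 after EPA, 7.96 after DHA and 7.64 after OA. Without the 3 arrays WY14643 and EPA exceeded OA in null mice by 0.51 and 0.66 (SE 0.17 each; adjusted p = 0.027 and 0.031).

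Pparg, which encodes the receptor best known from fat cells, differed between agonists past the threshold in wild-type mice, and no agonist pair passed in null mice. The probeset 1420715_a_at read 6.31, 6.09, 5.99 and 6.13 in PPARα-null mice given WY14643, against 5.34, 4.82, 5.24 and 5.55 in wild-type mice. It was thus 0.90 ± 0.18 higher in null mice (1.86-fold, adjusted p = 0.0011), without overlap. After OA the order was turned: 5.91, 6.23, 6.23 and 6.41 in PPARα-null mice, against 6.69, 6.55, 7.34 and 6.99 in wild-type mice. These groups did not overlap either, and the difference was −0.69 ± 0.18 (adjusted p = 0.080, and 0.042 without wild-type OA replicate 2). After EPA it was 0.36 ± 0.16 and after DHA −0.37 ± 0.17, with overlap and no call (adjusted p = 0.53 and 0.20).

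In wild-type mice Pparg was lower after WY14643 than after each fat. The group means were 5.24 ± 0.31 after WY14643, 6.15 ± 0.24 after EPA, 6.30 ± 0.19 after DHA and 6.89 ± 0.35 after OA (SD). WY14643 lay 0.91 below EPA (1.88-fold, adjusted p = 0.00011), 1.07 below DHA (2.09-fold, adjusted p = 3.0e-05) and 1.66 below OA (3.15-fold, adjusted p = 1.9e-07), without overlap. Among the fats EPA was 0.75 ± 0.17 below OA (adjusted p = 0.0055). DHA was 0.59 ± 0.17 below OA (adjusted p = 0.048), a call that ended when any 1 of the 9 arrays other than DHA replicate 3 or OA replicate 2 was left out (adjusted p up to 0.22). In null mice the means were 6.13 after WY14643, 6.51 after EPA, 5.93 after DHA and 6.20 after OA. The largest difference there was EPA minus DHA, 0.57 ± 0.17 (95% interval 0.23 to 0.92, adjusted p = 0.15), which is close in size to the called wild-type difference between DHA and OA.

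The difference between the genotypes in these responses was tested itself. For Pparg the WY14643 minus DHA difference was 1.27 ± 0.25 larger in PPARα-null than in wild-type mice (adjusted p = 0.0095), and the WY14643 minus OA difference was 1.59 ± 0.25 larger (adjusted p = 0.00067). The same terms were 1.27 and 1.50 without the 3 arrays (adjusted p = 0.0036 and 0.00085). Against EPA the term was 0.54 ± 0.24 (adjusted p = 0.60). Among the fats the EPA minus DHA and EPA minus OA terms of Pparg were 0.73 ± 0.23 and 1.06 ± 0.24 (adjusted p = 0.75 and 0.50), and without untreated mice these terms do not say which agonist moved Pparg. No other probeset of the 5 genes passed an interaction with WY14643, where 1.18%, 0.436% and 1.07% of all probesets did so against EPA, DHA and OA. For Ppara 1449051_at the terms were −2.56, −1.29 and −2.33 (SE 0.81, 0.83 and 0.85; adjusted p = 0.17, 0.73 and 0.29), so a smaller response of Ppara to WY14643 in null mice was not shown at this number of arrays.

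The paper reports that adhering fat and pancreas were removed at dissection. The acinar marker sum nevertheless ran from 2016 in a wild-type mouse given EPA to 120777 in a PPARα-null mouse given OA. A change in cell number and in RNA per cell cannot be told apart in these samples. Of 7 adipocyte markers found on the array 4 had a group mean above 32. Of the markers Adipoq, Lep and Retn were dim: Adipoq ranged between 1.62 and 5.69, while Lep stayed at or below 2.05 and Retn at or below 2.24. The other 4 were Cidec, Lpl, Fabp4 and Pck1. Cidec, a lipid droplet protein, lay between 8.68 and 9.39 in PPARα-null mice and between 10.02 and 10.57 in wild-type mice given WY14643, and Lpl, a lipoprotein lipase, between 5.24 and 6.91 over all arrays. The summed marker level was 4851 to 6701 in PPARα-null mice and 4124 to 6794 in wild-type mice given WY14643, against 1870 to 4695 over both genotypes given a fat, and its part in the Pparg result was not tested. Pck1, which enterocytes also express, was the largest term of that sum after WY14643, with 11.15 to 12.31 on the log2 scale, while Fabp4, a fatty acid binding protein of fat cells, was at 9.53 to 10.18 after WY14643 and at 9.69 to 11.35 after the fats.

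**Figure D3:**
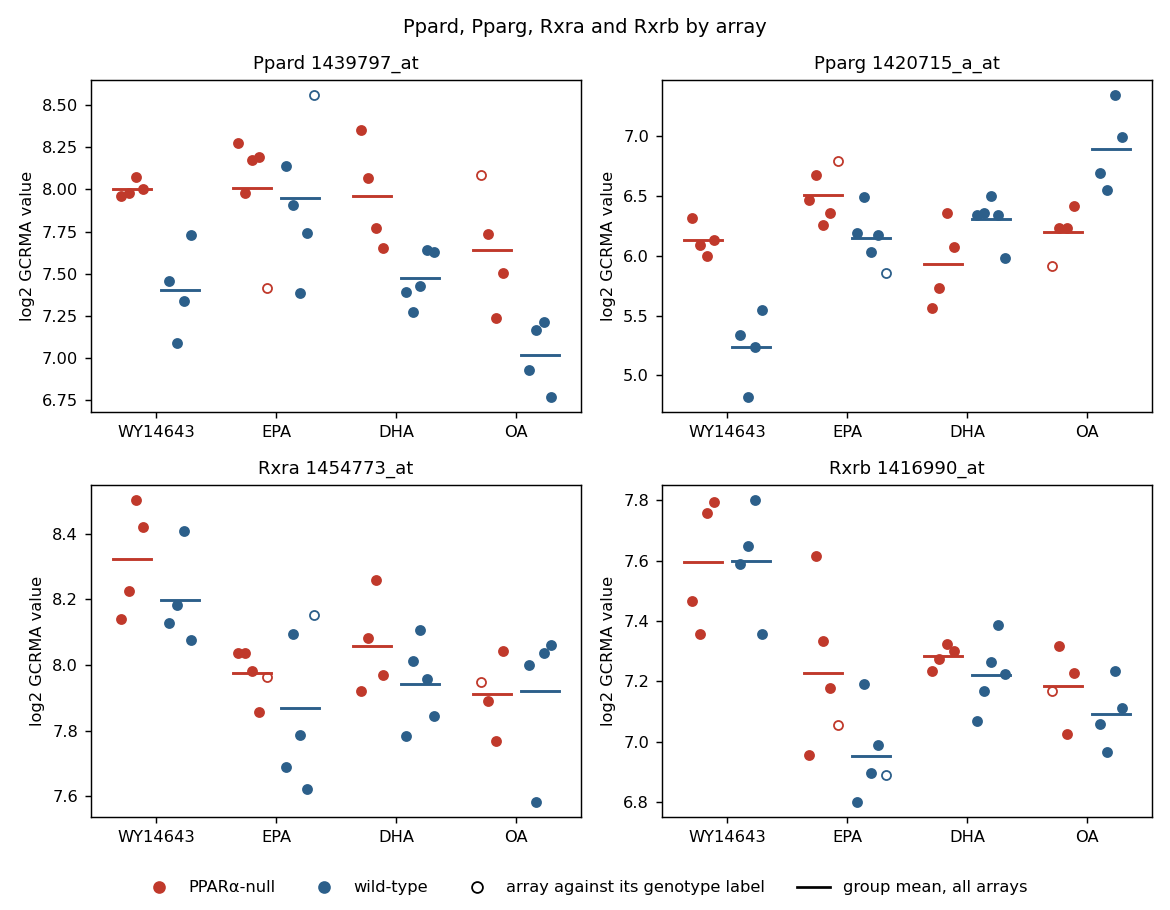
Log2 GCRMA value (vertical axis, not starting at 0) of Ppard, Pparg, Rxra and Rxrb on each array by agonist, PPARα-null mice left of wild-type mice, with group means over all arrays as lines and the 3 arrays against their labels as open circles. Pparg of wild-type mice is lowest after WY14643 (4.82 to 5.55) and highest after OA (6.55 to 7.34), and the means of Rxra and Rxrb are highest after WY14643 in both genotypes.

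No RXR gene passed the threshold between the genotypes under any agonist. Rxra was measured by 1454773_at, while its other probesets, 1425762_a_at (3.03 to 3.87) and 1430497_at (1.34 to 1.95), were dim on all arrays. The values after WY14643 were 8.14, 8.23, 8.50 and 8.42 in PPARα-null mice and 8.13, 8.18, 8.41 and 8.08 in wild-type mice, a difference of 0.12 (95% interval −0.12 to 0.36). For Rxrb, on 1416990_at, they were 7.47, 7.36, 7.76 and 7.79 in PPARα-null mice and 7.59, 7.65, 7.80 and 7.36 in wild-type mice, a difference of −0.005 (−0.25 to 0.24), which is 1.00-fold. After the fats the genotype differences of Rxra were 0.10 after EPA, 0.12 after DHA and −0.01 after OA. Those of Rxrb were 0.27, 0.06 and 0.09 (adjusted p at least 0.48 for both genes). The 95% interval of Rxrb after EPA was 0.053 to 0.49 and excluded 0, before adjustment over all probesets.

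The means of both RXR genes were higher after WY14643 than after each fat in both genotypes, and 8 of these 12 differences passed. Of all probesets 31.1%, 15.3% and 25.3% were called between WY14643 and EPA, DHA and OA in null mice. The shares in wild-type mice were 38.1%, 34% and 28.1%. Calls were thus common in these comparisons, and the count is not read as a result about the RXR genes. In PPARα-null mice Rxra was 0.35 ± 0.11 above EPA and 0.41 ± 0.12 above OA (1.27-fold and 1.33-fold, adjusted p = 0.018 and 0.011), without overlap, and 0.26 above DHA (adjusted p = 0.12), while the acinar marker sum was lower after WY14643 than after OA. Rxrb of null mice was 0.37 ± 0.11 above EPA and 0.41 ± 0.12 above OA (adjusted p = 0.015 and 0.013) and 0.31 above DHA (adjusted p = 0.077). In wild-type mice Rxrb was 0.65 ± 0.11 above EPA (1.56-fold, adjusted p = 5.8e-05), 0.38 ± 0.11 above DHA (adjusted p = 0.011) and 0.51 ± 0.12 above OA (adjusted p = 0.0022). The DHA call ended without wild-type WY14643 replicate 3 (adjusted p = 0.057). Rxra of wild-type mice was 0.33 ± 0.11 above EPA (adjusted p = 0.020, a call that ended without wild-type WY14643 replicate 3 or wild-type EPA replicate 1 or 4), and 0.26 above DHA and 0.28 above OA without passing (adjusted p = 0.074 and 0.076).

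The group means of Rxra and Rxrb followed each other over the 8 groups (Pearson r = 0.95), as a description over points that share their arrays. All 5 calls among agonist pairs in null mice, 1 of Ppara, 2 of Rxra and 2 of Rxrb, were lost when PPARα-null WY14643 replicate 3 was left out, which held the highest Rxra value of the series. Without replicate 4 of that group 1 call was left, that of Rxra against OA. The Rxrb calls also ended without PPARα-null EPA replicate 1 (against EPA) or PPARα-null OA replicate 3 (against OA).

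**Figure D4:**
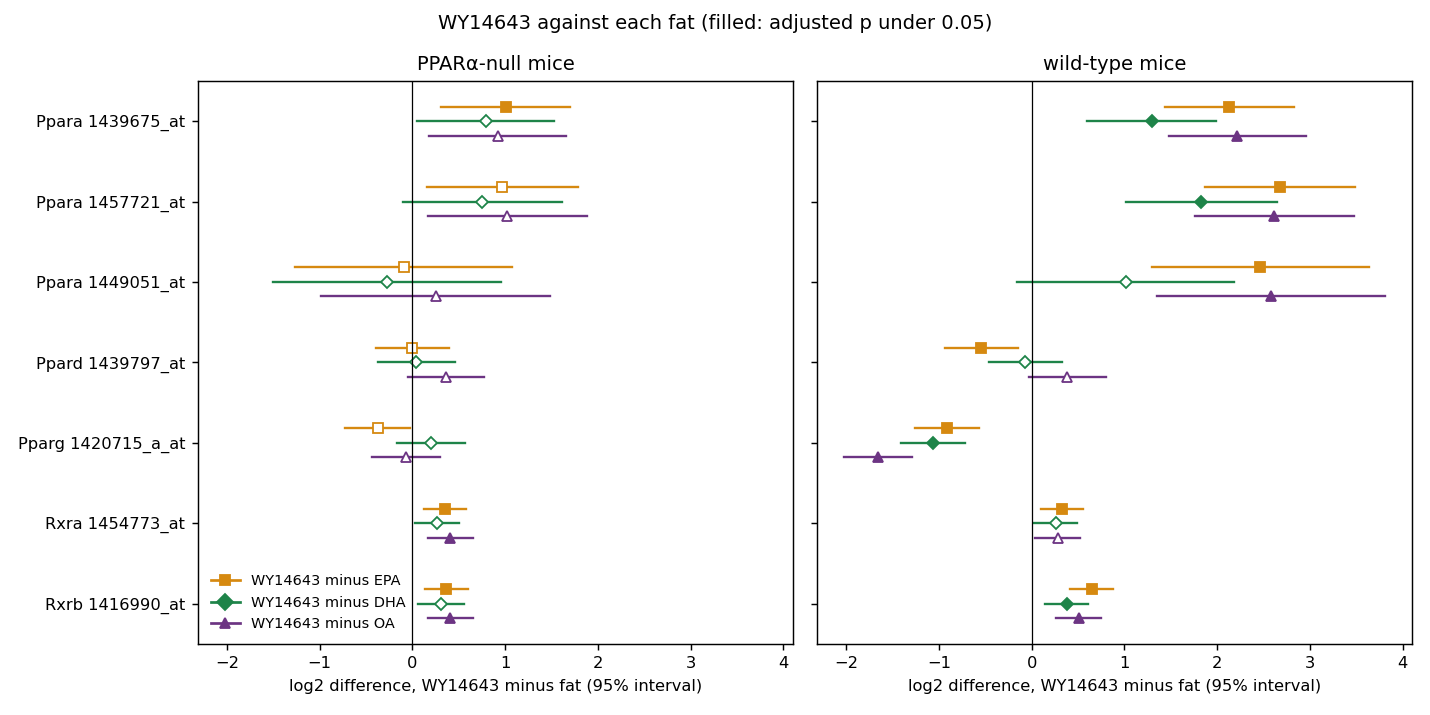
WY14643 minus each fat (log2 difference, horizontal axis) for the 7 tested probesets in PPARα-null mice (left) and wild-type mice (right), all arrays by label, with 95% intervals; filled symbols passed an adjusted p of 0.05. In wild-type mice the intervals of Ppara lie right of 0 except that of 1449051_at against DHA, and those of Pparg left of 0, while in null mice the Pparg intervals against DHA and OA span 0.

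Counted over the 7 tested probesets, WY14643 differed from EPA on 3, from DHA on 0 and from OA on 2 in PPARα-null mice, and from EPA on 7, from DHA on 4 and from OA on 5 in wild-type mice. The shares of all probesets called were 31.1%, 15.3% and 25.3% in null mice and 38.1%, 34% and 28.1% in wild-type mice. The counts in null mice are near these shares and are not a result about the receptor genes. Without the 3 arrays the counts in null mice were 4, 2 and 5, beside 29.4%, 16.2% and 24.5% of all probesets. The fats differed from each other on few probesets. With all arrays none of the 7 passed for EPA against DHA in null or wild-type mice (0.494% and 0.514% of all probesets) or, in null mice, for EPA or DHA against OA (2.2% and 0.923%). In wild-type mice 2 passed for EPA against OA (6.06% of all) and 1 for DHA against OA (3.4%). These 12 pairs share their groups, so their results are not independent of each other.

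The genes that act with the receptors were described by lists, with 1 probeset per gene. Of 24 measured PPAR target genes 22 were lower in PPARα-null mice after WY14643 (median difference −1.81), where 3.76% of 8626 genes were lower, and 17 were lower after DHA (median −0.97), where 3.7% were. None was higher. The largest after WY14643 were the acyl-CoA thioesterases Acot3 (2.42 in PPARα-null mice and 7.92 in wild-type mice) and Acot1 (6.90 and 11.26), the peroxisomal thiolase Acaa1b (9.36 and 13.48) and the glycerol channel Aqp3 (3.80 and 7.59). The null means of Acot3 and Aqp3 lay under the limit of 32. Their wild-type means after WY14643 lay above it, so the level filter and this comparison share a group. Acot3 averaged only 3.31 over all arrays, and its call, which is among the 22, is not independent of the filter. After EPA and OA no target gene passed with all arrays, and without the 3 arrays 17 and 11 were lower, where 1.31% and 1.15% of genes were.

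Fewer members of the other lists passed between genotypes, to be read beside the 3.76% of genes that were lower after WY14643. After WY14643 1 of 14 coactivators was lower in null mice, Helz2 (8.74 in PPARα-null mice and 9.35 in wild-type mice, adjusted p = 0.00088), and 1 of 7 corepressors and inhibitors, the histone deacetylase Hdac3 (7.24 and 7.98, adjusted p = 0.025). Of 8 other receptors that pair with RXR, 1 was lower, the bile acid receptor Nr1h4 (8.58 in PPARα-null mice and 9.56 in wild-type mice, adjusted p = 3.5e-05). Of 7 proteins listed for ligand binding and delivery 3 were lower, the fatty acid binding proteins Fabp1 (14.62 and 14.97) and Fabp2 (13.88 and 14.12) and the acyl-CoA binding protein Dbi (12.85 and 13.08, adjusted p = 0.050 after rounding). Fabp1 is also on the list of target genes. Of 10 genes of retinoid metabolism 2 were lower, the aldehyde dehydrogenases Aldh1a1 (11.84 and 12.52) and Aldh1a7 (8.92 and 10.35). After the other agonists no coactivator, corepressor or RXR partner passed.

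Of the 8 other RXR partners measured, WY14643 differed from EPA on 3, from DHA on 2 and from OA on 2 in PPARα-null mice, where 33.2%, 16.4% and 27.8% of genes were called. In wild-type mice it differed from EPA on 6, from DHA on 2 and from OA on 4, where 40.7%, 36.3% and 30.6% of genes were called. The vitamin D receptor Vdr and the thyroid hormone receptor Thra, picked after their values were seen, were higher in all 6 pairs. Vdr was higher by 0.81, 0.81 and 0.83 in PPARα-null mice and by 1.29, 0.87 and 1.28 in wild-type mice against EPA, DHA and OA (adjusted p at most 0.0029). Thra was higher by 0.54, 0.62 and 0.59 in PPARα-null mice and by 0.52, 0.74 and 0.63 in wild-type mice (adjusted p at most 0.0048).

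Of the 14 coactivators 4, 0 and 5 were called against EPA, DHA and OA in PPARα-null mice and 5, 2 and 5 in wild-type mice, in both directions. Of all genes 33.2%, 16.4% and 27.8% were called in null mice and 40.7%, 36.3% and 30.6% in wild-type mice. The counts were close to or under these shares and are not a result about the coactivators. Ppargc1a, the PPARγ coactivator PGC-1α, also picked after its values were seen, was higher after WY14643 than after EPA and OA by 0.61 and 0.81 in PPARα-null mice and by 0.58 and 0.83 in wild-type mice (adjusted p at most 0.0044). Against DHA it differed by 0.43 in PPARα-null mice and 0.39 in wild-type mice without passing (adjusted p = 0.071 and 0.057).

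The genes that followed each receptor most closely from mouse to mouse were sought over the 35 arrays after subtraction of the group means. Ppara 1439675_at had its highest r with Acaa1b (0.92), Hsd17b11 (0.92) and Hsd17b4 (0.91). These values rest in part on the 3 arrays, without which the first was again Acaa1b (0.82), followed by Ces1d (0.81) and Slc47a1 (0.80). Ppard was most like Parp9 (0.85), Unc5cl (0.80) and the coactivator Ppargc1b (0.79), of which Parp9 stayed among the first 3 without the 3 arrays (0.74). Pparg had no close match, with r of 0.69 for the phosphate transporter Slc20a1, 0.68 for Trp53i13 and 0.63 for Trdmt1. Rxra was most like Ttc7 (0.88), the transcription factor Mlxipl (0.85) and Kansl3 (0.82), and Rxrb like Cbfa2t2 (0.85), Ube2h (0.85) and Bptf (0.85). Leaving out the 3 arrays kept Ttc7 first for Rxra (0.90) and Slc20a1 first for Pparg (0.68), but replaced all 3 genes of Rxrb, by Pofut1 (0.86), Cep76 (0.86) and Slc30a9 (0.86). These r are the highest of many and are descriptions only.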

How the data were processed

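RNA of the small intestine of 35 mice, 1 mouse per array, was measured on Affymetrix whole-genome mouse arrays. The authors normalized the scans with GCRMA, which corrects background by probe sequence and normalizes by quantiles, and deposited log2 values; the GCRMA version is not given in the sources used here. Probesets were named through the platform annotation, and 99.7% of its symbols are in RefSeq's gene table. The members and the gene lists were chosen with earlier results of these data known. Probesets with a group mean above 32 (log2 5) in at least 1 of 8 groups were fitted in limma 3.58.1 (R 4.3.3) with 1 mean per group, an intensity trend in the prior and Benjamini-Hochberg adjustment over all 15384, and called at an adjusted p under 0.05. Gaps between Ppara probesets were tested by permutation (Python 3.11.15, numpy 2.4.6). The fit was tested on simulated data. Intervals are 95%. Array values have no counting depth, so the number of arrays limits the precision, and p-values cover the spread between single mice. Named genes are all probesets of the 5 genes, at most the 4 largest called members of a list in each direction, and the 3 genes most like each member; Vdr, Thra and Ppargc1a were named after their values were seen. Alternatives were the level filter, the prior, the samples fitted, the normalization, the scale, array weights, the replicate number as a block, the threshold and leaving out arrays.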

Additional observations from a re-analysis of the deposited data

Results flagged for a closer look

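Among the 56 groups of 4 or 5 mice of the 7 tested probesets, 3 held a mouse far from the rest of its group, and chance alone gives about 1 in 20 groups. Ppara 1439675_at read 11.06 in wild-type WY14643 replicate 4, against 11.67 to 11.71 in the other 3 mice. The same probeset read 8.14 in wild-type EPA replicate 5, 1 of the 3 arrays whose Cyp4a10 went against the genotype label, against 9.45 to 9.93 in the other 4. Rxra 1454773_at read 7.58 in wild-type OA replicate 2, against 8.001 to 8.06 in the other 3.

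The difference of Pparg between WY14643 and 2 of the 3 fats depended on genotype in a test of that difference itself. Its WY14643 minus DHA difference was 1.27 larger in PPARα-null than in wild-type mice, and its WY14643 minus OA difference was 1.59 larger (limma, adjusted p = 0.0095 and 0.00067). Against EPA the term was 0.54 (adjusted p = 0.60).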

How the results depend on the processing

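Of 1580 alternative values of 75 single differences, 1455 kept their direction and their side of the threshold. Among the 7 probesets 4 were called between genotypes after WY14643, and between 4 and 5 with any array left out. After DHA 1 was called: 0 with no filter, under the replicate block or at an adjusted p under 0.01, 2 with only the groups compared or at an unadjusted p under 0.01, 4 with array weights or without the 3 arrays, and 0 to 1 with an array left out. After EPA 0 were called and 3 without the 3 arrays. After OA 0 were called, against 1 with 32 added to the linear values, 2 at an unadjusted p under 0.01, and 0 to 1 with an array left out. Among agonist pairs in null mice 5 were called, against 12 with array weights or without the 3 arrays, 0 at an adjusted p under 0.01, and 0 to 8 with an array left out. In wild-type mice 19 were called, and 15 to 19 with an array left out. Target genes called lower numbered 17 after EPA and 11 after OA without the 3 arrays, against 0 with all. The causes of these shifts were not tested.

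Same-numbered null and wild-type arrays correlated at 0.092 to 0.55 after WY14643, −0.33 to 0.27 after EPA, −0.44 to 0.24 after DHA and −0.24 to −0.047 after OA, so the numbers were not taken to pair the samples, and the replicate block changed 2 calls of single differences. The gap between Ppara 1439675_at and 1457721_at fell to 0.094 with 32 added, and ranged over arrays left out from 0.24 to 0.30.

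Some differences that were never called changed sign. WY14643 minus EPA in null mice was 0.41 for Ppara 1449051_at without the 3 arrays (−0.40 to 0.41 with an array left out) and 0.012 for Ppard under the replicate block (−0.15 to 0.065). WY14643 minus DHA in null mice was −0.057 for Ppard with array weights (−0.059 to 0.17). Null minus wild-type was 0.011 for Rxra after OA with quantile normalization and 0.026 with array weights (−0.12 to 0.040), and 0.065 for Rxrb after WY14643 with array weights (−0.086 to 0.074). With an array left out, WY14643 minus OA in null mice ran over −0.13 to 0.86 for Ppara 1449051_at and −0.16 to 0.0067 for Pparg, null minus wild-type over −0.082 to 0.21 for Ppard after EPA, and WY14643 minus DHA in wild-type mice over −0.18 to 0.036 for Ppard.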
